A study of Mus musculus with 2 samples.

Results

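Ifit1, Ifit2, Ifit3, Ifit3b, Isg15, Usp18, Rsad2 and Cmpk2 are 8 interferon-stimulated genes, chosen by name from the 32285 features that each library was counted against. They were picked because they were lower after splenectomy in an earlier look at these same 2 libraries, so the difference between the libraries is given below as a description and supports nothing. Cells from the infarcted heart were captured with magnetic beads against CD45, the leukocyte surface antigen, and sequenced with droplet 3' chemistry. Wild-type male C57BL/6J mice aged 8 weeks had either a sham operation or removal of the spleen, and both groups then had 60 min of occlusion of the left anterior descending coronary artery followed by 24 h of reperfusion. There was 1 library for each group, and no library of an uninjured heart was used. The labels do not say how many hearts went into a library, so no comparison between the groups has a replicate check and no p-value is given. Intervals in brackets are 95% intervals for counting error only. Those of levels and ratios treat each UMI as a separate draw and leave out the spread between cells.

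Type I interferons are small secreted proteins that cells release when their sensors meet foreign or misplaced nucleic acid. They bind the IFNAR1 and IFNAR2 receptor, the kinases JAK1 and TYK2 then phosphorylate transcription factors such as STAT2, and these bind interferon-stimulated response elements with IRF9 and turn on genes such as these 8. IFIT proteins bind viral RNA, ISG15 is a ubiquitin-like protein that is joined to other proteins and taken off again by USP18, and viperin, the product of Rsad2, makes an antiviral nucleotide from CTP, which CMPK2 helps to supply.

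The 8 genes lie at 4 places in the mouse genome (mm10, GENCODE vM21 annotation), and all are protein-coding. Ifit2, Ifit3, Ifit3b and Ifit1 follow each other on the plus strand of chromosome 19 within 99.3 kb (chr19:34550694-34650009). Isg15 is at chr4:156199424-156200818 on the minus strand, and Usp18 at chr6:121245906-121270917 on the plus strand. Rsad2 (chr12:26442746-26456452, minus strand) and Cmpk2 (chr12:26469204-26479837, plus strand) are neighbours that point away from each other, in a span of 37.1 kb.

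The response element was searched as GAAANNGAAA on both strands of the RefSeq promoters (GRCm38.p6), each of 300 bases with 250 before the start of the gene and 50 after it. Of the 8 genes 7 (all but Usp18) matched the promoter table, 5 held the motif and 4 held it more than once, counting overlapping matches. Of all 32817 promoters 3.43% held it and 0.222% held it more than once. The windows that carry the matches, with 15 bases on either side, are shown because they are the sequence these genes share upstream. They run 5' to 3' on the strand of the gene, with the motif, or its reverse complement, in capitals.
Ifit1: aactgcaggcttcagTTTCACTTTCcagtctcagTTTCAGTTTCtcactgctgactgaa
Ifit3: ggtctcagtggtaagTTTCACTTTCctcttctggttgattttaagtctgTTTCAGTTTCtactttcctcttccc
Ifit3b: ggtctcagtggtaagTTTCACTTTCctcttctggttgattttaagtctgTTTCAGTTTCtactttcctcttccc
Isg15: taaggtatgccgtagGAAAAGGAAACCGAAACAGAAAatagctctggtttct
Rsad2: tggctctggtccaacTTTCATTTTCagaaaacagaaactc
The windows come from the promoters at chr19:34640639-34640938, chr19:34583279-34583578 and chr19:34607707-34608006 on the plus strand and chr4:156200769-156201068 and chr12:26456403-26456702 on the minus strand. The windows of Ifit3 and Ifit3b were identical over their 74 bases. Isg15 held 3 overlapping matches in a run, Ifit1, Ifit3 and Ifit3b held 2 separate ones, and Rsad2 held 1. These letters were not in the promoter windows of Ifit2 and Cmpk2. A match describes the sequence and shows no binding.

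Ifit3 and Ifit3b are close copies, and 35.1% of the 90-base windows of the Ifit3 transcript also occur in Ifit3b. In the last 500 bases, where 3' libraries take most of their reads, 27 of 411 windows of Ifit3 were shared and 0 of 411 of Ifit3b, so some reads of the pair may have gone uncounted or to the other copy. No 90-base window was shared between any other pair of the 4 Ifit genes.

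The sham library held 53512625 UMIs (unique molecular identifiers, each a counted molecule) in 6210 barcodes and the splenectomy library 48024013 in 5087. After filters, 5838 and 4805 cells were kept, with medians of 4988 and 7219 UMIs, and 9 barcodes occurred in both libraries. Ptprc, which encodes CD45, had a UMI in 79.7% and 79.4% of kept cells. Endothelial cell-like and cardiomyocyte-like clusters were present beside the leukocytes. Clusters were named from marker genes, so "-like" names are rebuilt ones. The 8 genes gave 38419 UMIs in the sham cells and 19444 in the splenectomy cells.

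As a share of class UMIs, neutrophils held the highest summed level of the 8 genes in both libraries, and B cells the lowest in the sham library. This order is not one of UMIs per cell, because neutrophil-like cells were shallow. Sham medians were 3318.5 UMIs in neutrophil-like and 14272 in macrophage-like cells. The 8 genes had 17306 UMIs in 2268 sham neutrophil-like cells and 12888 in 1573 macrophage-like cells. In UMIs per 1000000 UMIs of the class (CPM), neutrophil-like cells stood at 2148 (2117 to 2181) in the sham library, followed by endothelial cell-like cells at 910.5 (839 to 986). Macrophage-like cells were at 564 (555 to 574), monocyte-like cells at 481 (462 to 500) and nonclassical monocyte-like cells at 454 (404 to 507). The intervals of the last pair overlapped. An unnamed cluster led by MHC class II genes (519, 501 to 536) lay just above monocyte-like cells, without overlap. Conventional dendritic cell-like cells were at 395 (372 to 418), T cell-like cells at 204 (163 to 251) and B cell-like cells at 33.8 (18.5 to 56.8).

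After splenectomy the summed level was 1098 CPM in neutrophil-like, 330 in monocyte-like and 300 in macrophage-like cells. On the log2 scale these were differences of -0.97 (-1.01 to -0.93), -0.54 (-0.62 to -0.47) and -0.91 (-0.96 to -0.86). Nonclassical monocyte-like cells (180 CPM) differed by -1.33 (-1.71 to -0.97), conventional dendritic cell-like cells (204) by -0.95 (-1.10 to -0.80) and endothelial cell-like cells (628) by -0.54 (-0.72 to -0.35). The unnamed MHC class II cluster stayed close to its sham level, at 493 CPM and -0.07 (-0.15 to 0.00). A second unnamed cluster, of cells with few UMIs, was at 192 CPM in the sham and 125 in the splenectomy library (-0.61, -1.06 to -0.18). B cell-like cells, at 123 CPM, and T cell-like cells, at 533, were higher after splenectomy, by 1.86 (1.0 to 2.81) and 1.39 (1.01 to 1.77).

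The lymphocyte values rested on very few cells. Of the 58 UMIs in the 111 B cell-like cells of the splenectomy library, 51 were in 1 cell, which held 25 UMIs of Isg15 and 12 of Ifit3. Without the highest cell of each library the B cell-like difference was -1.06 (-2.62 to 0.37), so its direction was that of a single barcode. In T cell-like cells 1 cell held 85 of 199 UMIs and the next 55, and the difference without the highest cells was 1.01 (0.56 to 1.47). In nonclassical monocyte-like cells of the sham library 1 cell held 111 of 307 UMIs, and without the highest cells the difference was -0.88 (-1.30 to -0.48). Leaving out the highest cells gave -1.0 in neutrophil-like, -0.53 in monocyte-like and -1.0 in macrophage-like cells.

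**Figure D1:**
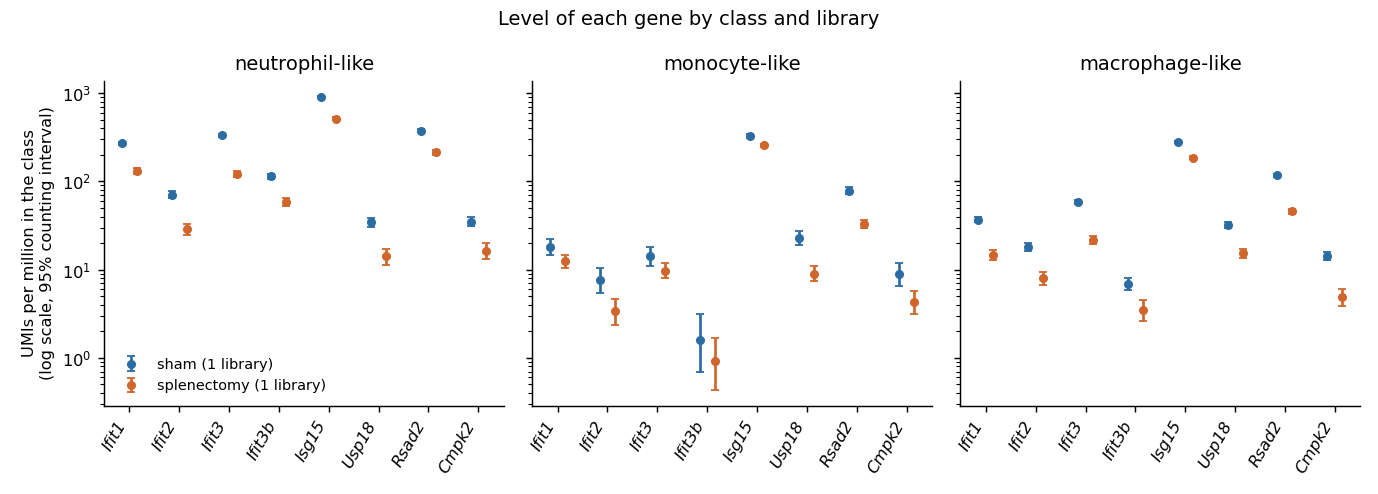
Level of each of the 8 genes (CPM, log axis) in the 3 large myeloid classes, with 95% counting intervals, for the sham (blue) and splenectomy (orange) libraries, 1 library each. Every splenectomy point lies below its sham point, and the intervals overlap for Ifit1, Ifit3 and Ifit3b in monocyte-like cells only.

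The IFIT genes encode the RNA-binding arm of the group. In neutrophil-like cells Ifit1, which binds the 5' end of foreign RNA, was at 270.4 CPM in the sham and 131 in the splenectomy library, a log2 difference of -1.04 (-1.16 to -0.93). Ifit2, a partner of the other IFIT proteins, was at 71.0 and 28.7 CPM (-1.31, -1.56 to -1.06). Ifit3, which stabilises human IFIT1 in a complex, was at 332 and 121 CPM, with a difference of -1.45 (-1.57 to -1.34) that was the lowest of the 8 in these cells. Ifit3b, its mouse copy, was at 115 and 58.8 CPM (-0.97, -1.15 to -0.80). All 4 had lower values in the splenectomy neutrophils.

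The same 4 genes were lower in macrophage-like cells, from 36.7 to 14.7 CPM for Ifit1 (-1.32, -1.53 to -1.11) and from 18.0 to 7.95 for Ifit2 (-1.18, -1.47 to -0.90). Ifit3 went from 58.2 to 21.5 CPM (-1.44, -1.61 to -1.27) and Ifit3b from 6.96 to 3.47 (-1.01, -1.47 to -0.56), where 1 cell held 50% of the splenectomy UMIs of Ifit3b. In monocyte-like cells the IFIT genes were scarce. Ifit1 was at 18.0 and 12.4 CPM (-0.54, -0.93 to -0.14), Ifit2 at 7.71 and 3.38 (-1.19, -1.88 to -0.50) and Ifit3 at 14.2 and 9.76 (-0.54, -0.99 to -0.09). Ifit3b had 8 and 10 UMIs there, too few to compare. A single splenectomy monocyte-like cell held 40 of the 136 Ifit1 UMIs.

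Isg15 differed least of the 8 in monocyte-like and macrophage-like cells. It was at 914 CPM in sham and 514 in splenectomy neutrophil-like cells (-0.83, -0.89 to -0.77), at 328 and 258 in monocyte-like cells (-0.35, -0.44 to -0.26) and at 280.3 and 187 in macrophage-like cells (-0.59, -0.65 to -0.52). Isg15 therefore made up more of the 8-gene UMIs after splenectomy, 46.8% against 42.5% in neutrophil-like, 78.1% against 68.3% in monocyte-like and 62.2% against 49.7% in macrophage-like cells. Usp18, the protease that removes ISG15 and also dampens signalling at IFNAR2, was at 34.5 and 14.1 CPM in neutrophil-like cells (-1.29, -1.65 to -0.94). It was at 23.1 and 9.03 CPM in monocyte-like (-1.36, -1.76 to -0.96) and 32.2 and 15.2 in macrophage-like cells (-1.08, -1.29 to -0.87). In conventional dendritic cell-like cells Usp18 (21.2 and 16.3 CPM) had a difference of -0.38 whose interval (-0.97 to 0.21) included 0.

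Rsad2, which encodes viperin, was at 376 and 213 CPM in neutrophil-like cells, where its difference of -0.82 (-0.91 to -0.73) was about that of Isg15. In macrophage-like cells Rsad2 was at 118 and 45.7 CPM (-1.36, -1.48 to -1.25) and in monocyte-like cells at 78.9 and 32.7 (-1.27, -1.48 to -1.06). Its genomic neighbour Cmpk2, a mitochondrial nucleotide kinase, was at 35.1 and 16.3 CPM in neutrophil-like cells (-1.11, -1.45 to -0.78). Cmpk2 was at 8.90 and 4.29 CPM in monocyte-like (-1.05, -1.67 to -0.43) and 14.4 and 4.84 in macrophage-like cells (-1.57, -1.94 to -1.22), the lowest of the 8 in the latter. Summed over each class, both genes of this pair had lower values after splenectomy in all 3.

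By a rule of at least 1.5-fold among genes with at least 50 UMIs over both libraries, 8 of 8 genes were lower in neutrophil-like cells, where 7.64% of 7095 genes were lower and 4.09% higher. In macrophage-like cells 8 of 8 were lower, beside 2.82% of 10273 genes lower and 3.42% higher. In monocyte-like cells 4 of the 7 genes that reached 50 UMIs were lower (Ifit2, Usp18, Rsad2 and Cmpk2), beside 5.09% of 8394 genes lower and 3.41% higher. None of the 8 was higher in any of the 3. The median log2 difference of the 8 was -1.08, -1.25 and -1.05 in neutrophil-like, macrophage-like and monocyte-like cells. Over all genes tested it was -0.07, 0.00 and 0.00. Since the genes were chosen on this contrast, nothing is read from these counts. The count for macrophage-like cells was 4 when the interferon genes took part in the clustering and 5 at a finer clustering, with summed differences of -0.46 and -0.58. With the libraries clustered apart, the counts were 5 in macrophage-like and 8 in monocyte-like cells and the summed differences -0.60 and -0.87. The share of all genes lower was not taken at these other settings.

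In conventional dendritic cell-like cells Ifit1 was at 24.6 and 6.82 CPM (-1.85, -2.68 to -1.09), Ifit2 at 25.3 and 5.69 (-2.15, -3.06 to -1.34) and Rsad2 at 29.4 and 8.34 (-1.82, -2.56 to -1.13). Ifit3b had 16 UMIs there in sham cells and 0 after splenectomy, where a count of 0 allows up to 1.14 CPM. In endothelial cell-like cells Ifit1 was at 188 and 81.0 CPM (-1.21, -1.70 to -0.74), while Isg15 (344 and 307) and Cmpk2 (39.1 and 36.0) differed by -0.16 (-0.44 to 0.12) and -0.12 (-0.98 to 0.74). In the unnamed MHC class II cluster Ifit1 was higher after splenectomy, at 34.6 against 20.7 CPM (0.74, 0.41 to 1.08), while Usp18 was lower, at 17.5 against 26.3 (-0.59, -0.98 to -0.21).

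To ask whether few cells carried the signal, each cell was thinned at random to a fixed number of UMIs, 2000 in neutrophil-like, T cell-like and B cell-like cells and 4000 in the other myeloid classes. This dropped 225 sham and 116 splenectomy neutrophil-like cells that were shallower, 8 and 8 monocyte-like cells and 160 and 99 macrophage-like cells. The share of neutrophil-like cells with a UMI of any of the 8 genes was 62.9% in the sham and 40.3% in the splenectomy library, against 70.7% and 50.2% before thinning. In monocyte-like cells it was 71.2% and 44.4% (90.6% and 64.3% before thinning), and in macrophage-like cells 59.2% and 38.1% (79.1% and 58.2%). For comparison, B cell-like cells, which had median depths of 3489 and 3689 UMIs against 3318.5 and 3744.5 in neutrophil-like cells, had a UMI in 6.06% and 4.0% at the same thinned depth. At 4000 UMIs 3 of 31 sham (9.68%, 2.04 to 25.8) and 2 of 38 splenectomy B cell-like cells (5.26%, 0.64 to 17.7) had one. The shares in the 3 myeloid classes stood above those of B cell-like cells at the same depth. Whether the UMIs in B cell-like cells are free RNA was not measured.

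Single genes had the same order. At the thinned depth Isg15 was seen in 51.5% of sham and 33.2% of splenectomy neutrophil-like cells, Ifit3 in 23.9% and 9.90%, Rsad2 in 21.4% and 11.1% and Ifit1 in 18.0% and 9.63%. Ifit3b was seen in 13% and 6.11%, Ifit2 in 5.73% and 2.10%, Usp18 in 5.19% and 1.97% and Cmpk2 in 4.41% and 2.37%. Each gene was thus seen in a smaller share of neutrophils after splenectomy.

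The signal was very uneven between cells in both libraries. In sham neutrophil-like cells the mean was 4.16 UMIs of the 8 genes per cell and the median 1, and 37.1% of cells had none, where an even (Poisson) spread of the same mean would leave 1.56%. In the splenectomy library the mean was 2.16 and the median 0, with 59.7% of cells at none against 11.5% for an even spread. The variance was 18.9 times the mean in the sham and 26.3 times in the splenectomy neutrophils. The UMIs of the 8 genes were split such that 147 of 2043 sham cells (7.20%) held 50% of them, and 51 of 1474 splenectomy cells (3.46%).

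Both the strongest cells and the rest were lower after splenectomy, the rest by more on the log2 scale. In UMIs, the top 10% of cells held 42.0% of the difference in the mean per cell in neutrophil-like cells. This part was 49.3% in macrophage-like and 13.8% in monocyte-like cells. The 10% of neutrophil-like cells with most UMIs of the 8 genes held 58.6% of them in the sham and 74.0% in the splenectomy library. Their mean was 24.4 UMIs against 16.0, a log2 difference of -0.61, while the mean of the other cells was 1.91 against 0.62, a difference of -1.62. In macrophage-like cells the top 10% held 59.7% and 68.3%, and the differences were -0.68 in the top and -1.22 in the rest. In monocyte-like cells the top 10% held 44.7% and 60.7%, with differences of -0.17 in the top and -1.10 in the rest. A larger part of the signal was thus held by few cells after splenectomy in all 3 classes, while positive cells were rarer. This share also rises when fewer UMIs are counted. Sham cells thinned to 1000 UMIs gave 60.3% in neutrophil-like, 66.1% in macrophage-like and 58.2% in monocyte-like cells. How much of the rise comes from the lower counts was not tested.

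Cells with many UMIs were also rarer in neutrophils and macrophages, although the highest single cell was in the splenectomy library, with 137 against 110 thinned UMIs in neutrophil-like and 114 against 86 in macrophage-like cells. At the thinned depth 470 sham neutrophil-like cells (23.0%) and 155 splenectomy ones (10.5%) held 5 UMIs or more, and 20.4% and 9.16% had at least 3 of the 8 genes. In macrophage-like cells 12.5% and 6.31% held 5 UMIs or more. In monocyte-like cells these shares were 11.6% and 8.04%. At 10 UMIs or more they were 2.54% (9 cells) and 2.33% (18 cells), nearly the same but resting on few cells. The 99th percentile of monocyte-like cells was 19 UMIs in the sham and 14 in the splenectomy library. The mean per positive monocyte-like cell was 2.94 and 3.11 UMIs, while it was 6.61 and 5.36 in neutrophil-like and 4.01 and 3.41 in macrophage-like cells.

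**Figure D2:**
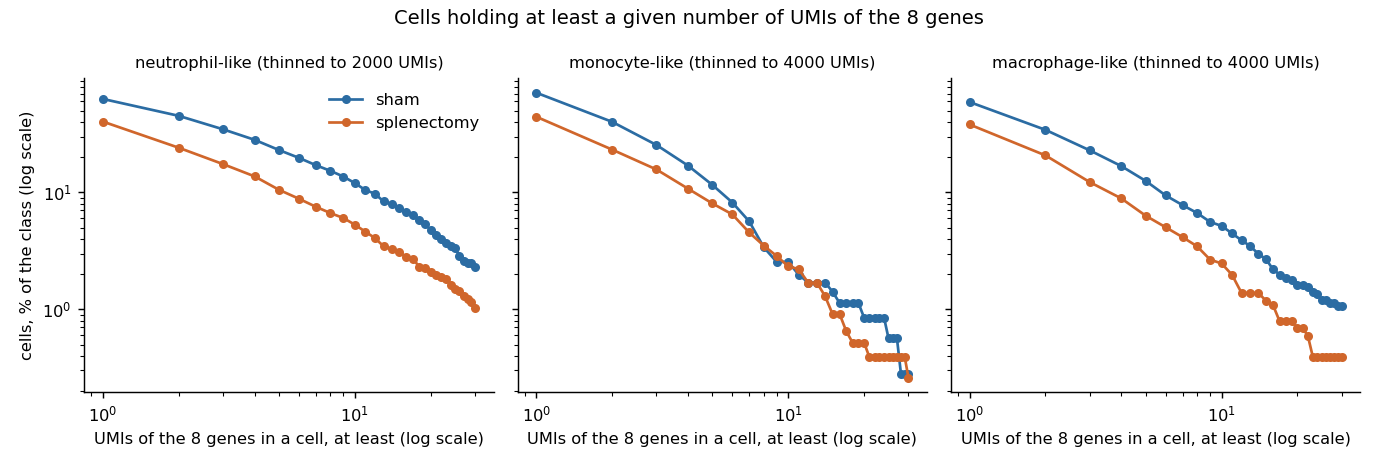
Share of cells (%, log axis) that hold at least a given number of UMIs of the 8 genes (log axis) after thinning each cell to a fixed depth, for the sham (blue) and splenectomy (orange) libraries. Over the range drawn, up to 30 UMIs, the splenectomy curve lies below the sham curve in neutrophil-like and macrophage-like cells, and in monocyte-like cells the curves meet near 10 UMIs.

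The unnamed MHC class II cluster had nearly equal means but not equal distributions. Its thinned share of positive cells was 61.4% in the sham and 42.0% in the splenectomy library, while its means were 2.20 and 2.16 UMIs per cell. The top 10% of its cells were higher after splenectomy by 0.47 on the log2 scale, the rest had a log2 difference of -0.89, and the share held by the top 10% was 52.8% and 74.1%. The near-zero difference of its sum thus joined fewer positive cells with a small number of stronger ones. At the thinned depth 12 of 379 splenectomy cells held 50% of the UMIs, against 44 of 498 sham cells. Without the highest cell of each library the cluster differed by -0.14 (-0.22 to -0.06). In T cell-like cells the share of positive cells was 23.4% and 23.2%.

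In neutrophil-like and macrophage-like cells, each of the other genes was seen more often in cells with Ifit3 than in cells without it. Among thinned sham neutrophil-like cells with Ifit3, 88.5% had another of the genes, against 51.3% of cells without Ifit3. In the splenectomy library these shares were 86.3% and 33.7%. Isg15 made up most of this, seen in 82.8% of sham neutrophil-like cells with Ifit3 and 41.7% of those without. Ifit2, Usp18 and Cmpk2 were seen in 19.6%, 13.3% and 13.1% of the sham neutrophil-like cells with Ifit3. Rsad2 was in 50.3% of sham neutrophils with Ifit3 and 12.4% of those without, and in 47.9% and 7.08% after splenectomy. In macrophage-like cells Rsad2 was in 48.5% and 13.1% (sham) and in 42.9% and 6.01% (splenectomy). The share among Ifit3 cells was thus close between the libraries, while the share among the other cells was lower after splenectomy.

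The difference was not the same in every cluster. Of 19 clusters with at least 30 cells in each library, 15 had a lower summed level after splenectomy with an interval below 0, 2 were higher (B cell-like and T cell-like) and 2 included 0. These intervals leave out the spread between cells, so they are too narrow for so uneven a signal. In the B cell-like cluster 51 of the 58 splenectomy UMIs were in 1 cell. The neutrophil-like class was made of the same clusters in both libraries, in different proportions. Cluster 2, led by Retnlg, held 427 sham and 793 splenectomy cells, and clusters 1 and 3 held 967 and 811 sham but 449 and 310 splenectomy cells. The summed difference was -1.23 (-1.29 to -1.16) in cluster 2, -1.15 (-1.23 to -1.08) in cluster 1 and -0.32 (-0.41 to -0.24) in cluster 3. Single genes did not all follow the sum in cluster 3, where Rsad2 (254 and 277 CPM), Cmpk2 (22.6 and 25.8) and Ifit2 (46.7 and 48.1) differed by 0.12, 0.19 and 0.04. Weighting the clusters by their sham share of UMIs gave -0.89 for the class. This lay outside the counting interval of the class as found, -0.97 (-1.01 to -0.93).

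Monocyte-like cluster 5, led by Fn1, Il6 and Arg1, held 186 and 502 cells and differed by -0.37 (-0.47 to -0.27). In it Ifit2 (9 and 25 UMIs) and Ifit3 (34 and 87) differed by 0.06 and -0.05, and Ifit3b had 2 and 7 UMIs. Cluster 7, led by Lcn2 and Vcan, held 176 and 277 cells and differed by -0.95 (-1.08 to -0.83). Among macrophage-like clusters the largest, cluster 0, led by Ccl12, Pf4 and Arg1, differed by -0.56 (-0.62 to -0.51). Cluster 9, led by complement C1q genes and Lyve1, a marker of resident cardiac macrophages, differed by -1.56 (-1.73 to -1.39), and cluster 13, led by Ccl24, by -1.82 (-2.10 to -1.53). With sham weights the class differences were -0.61 for monocyte-like and -0.74 for macrophage-like cells. Summed neutrophil markers were at 1404 CPM in sham and 3658 in splenectomy monocyte-like cells (3 of 10 markers higher, 1 lower by the 1.5-fold rule) and at 646 and 934 in macrophage-like cells (3 higher, 1 lower), and their part in these values was not tested. Split at the quartiles of depth, the difference ran from -1.42 to -0.34 in neutrophil-like and from -1.33 to -0.19 in macrophage-like cells, and from -0.93 to -0.08 in monocyte-like cells, where the interval of the deepest cells (-0.23 to 0.08) included 0.

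**Figure D3:**
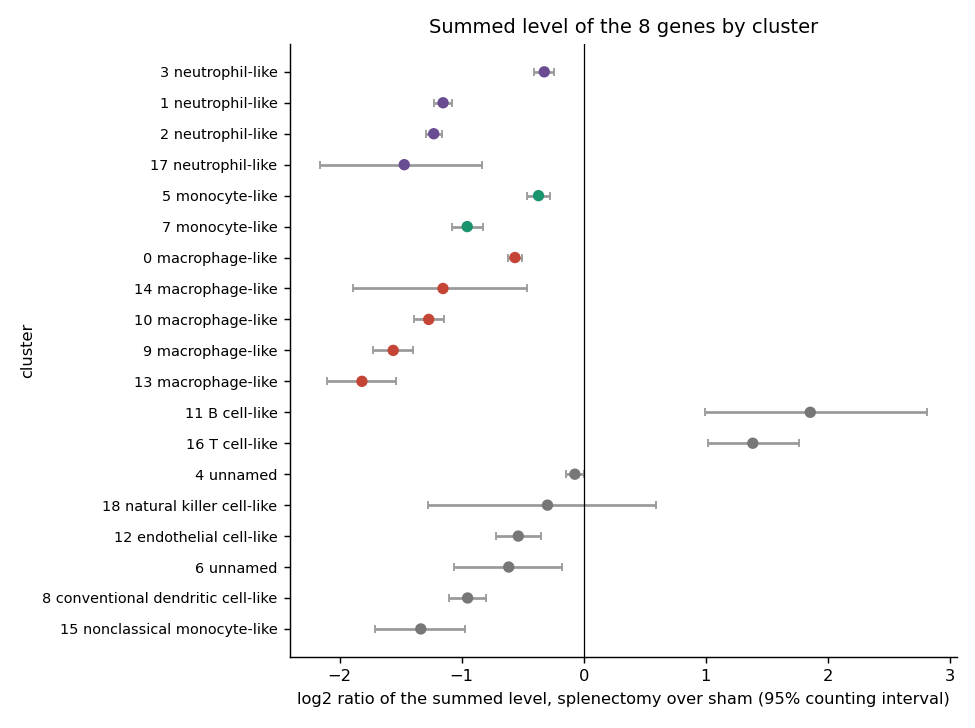
Log2 ratio of the summed CPM of the 8 genes, splenectomy over sham, with 95% counting intervals, for the 19 clusters with at least 30 cells in each library, coloured by class. Neutrophil-like, monocyte-like and macrophage-like clusters lie between -1.82 and -0.32, and the B cell-like and T cell-like clusters lie above 0.

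The wider pathway was described from lists of 118 further genes found in the files, which were also drawn up with results of these libraries known. By the 1.5-fold rule 53 of 92 tested were lower and 2 higher in neutrophil-like cells, beside 7.64% of all genes lower. In monocyte-like cells 64 of 91 were lower and 1 higher, beside 5.09% of all genes lower, and in macrophage-like cells 64 of 99 were lower and 0 higher, beside 2.82%. Of the 14 interferon ligands 11 had 0 UMIs in kept cells of both libraries, which allows a UMI in up to 0.0514% of sham and 0.0624% of splenectomy cells. Ifnb1, interferon beta, had 70 UMIs in 25 sham cells and 43 in 20 splenectomy cells, all of them macrophage-like, monocyte-like or unnamed. In macrophage-like cells Ifnb1 had 35 and 22 UMIs, a log2 difference of -0.22 (-1.06 to 0.59). Ifng, interferon gamma, had 81 UMIs in 28 cells and 33 in 20, and Ifnk had 3 and 2. Natural killer cell-like cells, 67 in the sham and 31 in the splenectomy library, held 51 and 26 of the Ifng UMIs, in 22 and 16 cells. A single unnamed sham cell held 19 of the 81.

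Like most of all genes tested, none of the receptor genes passed the rule in any of the 3 classes. Of all genes, 7.64% were lower and 4.09% higher in neutrophil-like cells. These shares were 5.09% and 3.41% for monocyte-like cells, and 2.82% and 3.42% for macrophage-like cells. With 6, 5 and 5 receptor genes tested there, a count of 0 does not set them apart. Ifnar1 differed by 0.27 in neutrophil-like, 0.27 in monocyte-like and 0.00 in macrophage-like cells, and Ifnar2 by -0.27, -0.14 and -0.12. Ifngr1, Ifngr2 and Il10rb lay between -0.12 and 0.20, and Ifnlr1, at 47 and 34 UMIs in neutrophil-like cells, differed by -0.12 there. Jak1, the shared kinase, differed by -0.07, 0.02 and -0.01, and Tyk2 by -0.31, -0.54 and -0.14. Of the transcription factors Irf7, which amplifies type I interferon production, was lower in all 3 classes, with differences of -1.06, -1.30 and -1.14. Stat2 differed by -1.08, -1.06 and -0.94, while Irf9, its DNA-binding partner, differed by -0.42, -0.63 and -0.49 and passed the rule in monocyte-like cells only. Irf1 differed by -0.51, -0.57 and -0.37. Irf2, Irf3 and Irf5 lay between -0.21 and 0.20.

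The enzymes that attach ISG15 were mostly lower with it. Uba7, the activating enzyme, differed by -0.68 in neutrophil-like, -0.66 in monocyte-like and -0.73 in macrophage-like cells. Ube2l6, the conjugating enzyme, differed by -1.01, -0.93 and -0.89, and Herc6, the mouse ligase, by -0.95, -0.91 and -0.72. These 3 passed the rule in each class, beside 7.64%, 5.09% and 2.82% of all genes lower, and Trim25 (-0.13, -0.28 and -0.37) in none. The Ifit relatives Ifit1bl1 (-1.43) and Ifit1bl2 (-1.0) were lower in neutrophil-like cells.

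Of the nucleic acid sensors, 3 of 7 were lower in neutrophil-like cells and 2 higher, beside 7.64% of all genes lower and 4.09% higher. In monocyte-like cells 5 of 7 were lower, beside 5.09% of all genes, and in macrophage-like cells 4 of 9, beside 2.82%. The extremes of the sensors were Ifih1 at -0.89 and Tmem173 at 1.11 in neutrophil-like cells. They were Ddx58 at -0.93 and Cgas at 0.21 in monocyte-like cells, and Dhx58 at -0.91 and Tlr3 at 0.03 in macrophage-like cells. Like most of all genes tested, none of the 4 negative regulators passed the rule. They ran from Socs1 at -0.24 to Socs3 at -0.02 in neutrophil-like cells, from Socs1 at -0.02 to Ptpn2 at 0.47 in monocyte-like cells, and from Socs1 at -0.38 to Socs3 at 0.23 in macrophage-like cells.

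Other interferon-stimulated genes were lower in 42 of 59 cases in neutrophil-like, 52 of 61 in monocyte-like and 53 of 65 in macrophage-like cells, beside 7.64%, 5.09% and 2.82% of all genes. Their medians were -0.76, -0.90 and -0.77, against -0.07, 0.00 and 0.00 over all genes. The lowest were Ifi206 (-1.80), Ifi213 (-1.83) and Ly6a (-1.40) in the 3 classes in turn. The highest were Ifitm2 in neutrophil-like (0.08) and macrophage-like cells (0.07), and Cxcl10 in monocyte-like cells. Cxcl10, a chemokine that draws T cells, was at 109 CPM in sham and 221 in splenectomy monocyte-like cells (1.02, 0.88 to 1.15), the only gene of that list higher by the rule there.

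**Figure D4:**
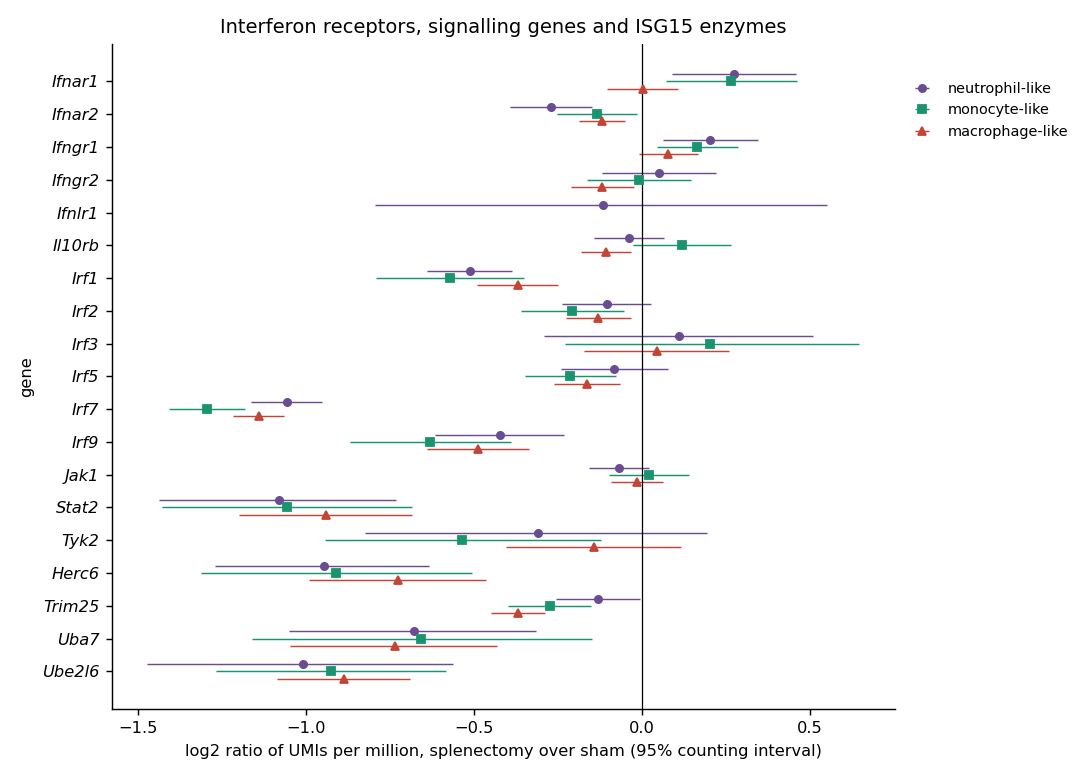
Log2 ratio of CPM, splenectomy over sham, with 95% counting intervals, for the interferon receptor genes, the receptor kinases and transcription factors named in the text, and the ISG15 enzymes with at least 50 UMIs. Circles are neutrophil-like, squares monocyte-like and triangles macrophage-like cells. Receptor genes lie between -0.27 and 0.27, while Irf7 and Stat2 lie between -1.30 and -0.94.

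Over 16 profiles of class and library, the genes whose log2(CPM + 1) was most like that of the summed 8 genes were Rtp4 (Pearson r 0.94), Pdlim7 (0.91), Tnfrsf23 (0.90), Gpx4 (0.88), Btbd19 (0.87), Oasl2 (0.87), Lasp1 (0.87), Mettl9 (0.87), Pef1 (0.87) and Rnf11 (0.86). These were the top 10 of 9327 genes ranked, and Rtp4 and Oasl2 alone were in the interferon lists. Each profile counted the same whatever its number of UMIs. In the sham library the summed level ran from 33.8 CPM in B cell-like cells, on 14 UMIs, to 2148 in neutrophil-like cells. The profiles also share 2 libraries, so the likeness is a description. Among the 8 genes themselves, r with the sum of the other 7 ran from 0.67 (Ifit3b) to 0.92 (Rsad2).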

How the data were processed

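Per the file headers, the authors deposited filtered gene-by-cell matrices of UMI counts from Cell Ranger 5.0.0. The build mm10 and STAR are named in the submitters' processing notes, and the annotation the authors counted against is not named in any of them. Positions come from GENCODE vM21. Cells with under 200 genes (32 sham, 26 splenectomy) or over 20% mitochondrial UMIs (58, 72) were dropped. Within each library the cells with the highest Scrublet scores (302, 200) were dropped as putative doublets, their number set at 8 per 1000 cells for every 1000 cells. Kept cells were scaled to 10000 UMIs and clustered with scanpy 1.11.5 (2000 variable genes without the interferon genes, 30 components, 15 neighbours, Leiden resolution 1). A cluster took the name of the class of markers with the highest mean log2 fold, where at least 3 markers were detected in 25% of its cells and 1 was among its top 10 genes. UMIs were summed per class and library, and ratios have exact 95% intervals. Calls needed a 1.5-fold difference and 50 UMIs over both libraries. The scripts were tested on simulated data with counting error only, so that test does not cover the spread between cells. The 8 genes, the lists and the alternatives were chosen with earlier results of these data known. Named genes were the 8 in each class with 50 cells in both libraries, the ligands, receptors, kinases, transcription factors and ISG15 enzymes, the extremes of the other lists, and the 10 most similar genes with at least 200 UMIs, leaving out mitochondrial, ribosomal, haemoglobin and predicted genes. The values of 1 listed gene are not reported here. Cluster-leading genes, Ptprc and the markers were named beside them.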

Additional observations from a re-analysis of the deposited data

Results flagged for a closer look

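The summed level was higher after splenectomy in the B cell-like and T cell-like classes, while it was lower in the named myeloid classes, and the difference between classes was not tested. Natural killer cell-like cells, at -0.30 (-1.27 to 0.59), were not higher. In B cell-like cells the log2 difference was 1.86 for the 8 genes, 3.61 (1.63 to 6.73) for Isg15 on 2 and 28 UMIs, and 2.03 (0.19 to 4.47) for Ifit3 on 3 and 14 UMIs. A single cell held 25 of the 28 and 12 of the 14. In T cell-like cells it was 1.39 for the 8 genes, 1.11 for Ifit1, 1.61 for Ifit3, 1.08 for Isg15, 2.96 for Rsad2 and 3.36 (0.51 to 8.82) for Usp18 on 1 and 9 UMIs. The highest T cell-like cell held 26 of the 34 Rsad2 UMIs, and the highest for Usp18 held 6 of its 9. Ifit1 in the unnamed MHC class II cluster differed by 0.74, and its highest splenectomy cells held 33 and 25 of 172 UMIs.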

How the results depend on the processing

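No paired analysis was possible because each group had 1 library. Of the 172 alternative values, 76 were log2 ratios or differences in a share, which have a sign, and these 76 kept it. Of the 172, 116 stayed within the counting interval (or within 1.5 times the count). Taking monocyte-like, macrophage-like and unnamed MHC class II cells together, leaving out the highest cell and the sham mix of clusters were chosen after seeing the data. The summed neutrophil-like log2 ratio was -1.05 without doublet removal, -1.07 with cells classed by their own marker UMIs, -0.90 scaled by the median ratio and -0.89 at the sham mix. The monocyte-like ratio was -0.66 with at least 500 genes, -0.95 at resolution 0.5, -0.87 with libraries clustered apart, -0.86 by own marker UMIs and -0.68 for the joined classes. The macrophage-like ratio was -0.84 without doublet removal, -0.79 at a 10% mitochondrial limit, -0.76 with 500 genes, -0.74 at resolution 0.5, -0.58 at 1.5, -0.46 with interferon genes in the clustering, -0.60 clustered apart, -0.85 as a mean over cells, -1.0 without the highest cells, -0.74 at the sham mix and -0.68 joined. Thinning to 1000 UMIs gave differences in the share of positive cells (percentage points) of -18.7 (neutrophil-like), -9.49 (monocyte-like) and -10.6 (macrophage-like). The monocyte-like share difference was -37.9 at resolution 0.5 and -20.6 joined, and the macrophage-like one -16.5 at 10% mitochondrial UMIs and -17.0 clustered apart.

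The top 10% of sham neutrophil-like cells held 56.4% by own marker UMIs, 60.3% thinned to 1000 and 61.2% unthinned, and of splenectomy ones 69.4% by own marker UMIs. In sham monocyte-like cells it was 49.0% without doublet removal, 48.5% with 500 genes, 39.2% at resolution 0.5, 38.5% with interferon genes kept, 50.5% clustered apart and 58.2% thinned to 1000. In splenectomy monocyte-like cells it was 56.9% with interferon genes kept, 66.2% by own markers and 70.8% thinned to 1000. In sham macrophage-like cells it was 62.3% at 10% mitochondrial UMIs, 62.2% with 500 genes, 58.0% with interferon genes kept, 62.0% clustered apart, 63.8% by own markers and 66.1% thinned to 1000. In splenectomy ones it was 74.2% clustered apart, 71.5% by own markers, 75.9% thinned to 1000 and 65.6% unthinned. Genes lower by the fold rule numbered 5 in neutrophil-like cells at 2-fold. In monocyte-like cells they were 8 clustered apart and 7 by own markers, and in macrophage-like cells 5 at resolution 1.5, 4 with interferon genes kept and 5 clustered apart. The share of all genes lower was taken at the main setting only, so nothing is read from these counts. The border of the monocyte-like and macrophage-like classes moved between settings, and with cells classed by their own marker UMIs 27.2% of cells lay within 0.1 of the border between classes. The cause of these shifts was not tested. A library without a replicate limits every comparison, and the B cell-like and T cell-like values are limited by few cells and low levels.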
